A study of Mus musculus with 42 samples.

Results

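The eyes of male mice lacking the long noncoding RNA gene *Tug1* were compared with the eyes of male wild-type mice. All samples labelled eye were taken, 3 from wild-type and 3 from knockout mice, which makes 6 of the 42 samples of 7 labelled tissues. Every mouse was of the strain Tug1_tm1.1Vlcg on a C57BL/6J background. Wild-type mice had normal *Tug1* alleles and no *LacZ*. In knockout (Tug1-/-) mice both alleles carried a *LacZ* reporter where *Tug1* had been, with the *Tug1* promoter and first exon kept, so the deletion was in the germline and not limited to the eye. The age of these mice is not given in the sources used here, nor is how much muscle, fat or lid was left on the dissected eyes. Polyadenylated RNA from snap-frozen, pulverized tissue had been sequenced, and the deposited table gives 1 value per gene for each genotype, with the 3 samples combined by the authors. No value per sample exists in it, so there is no replicate check: none of the differences below has an error or a test, and whether they exceed the spread between mice cannot be said.

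An eye is many tissues in one sample. The lens is made of fiber cells packed with crystallins, the cornea is covered by a layered epithelium of keratin-bearing cells, and the retina holds rods and cones that detect light through opsins and a cascade of transducin and phosphodiesterase. Outside the globe lie the extraocular muscles, fast-contracting fibers with myosins of their own, and the fat of the orbit, both of which can come away with a dissected eye. In RNA from whole tissue, fewer cells of a type and less RNA per cell cannot be told apart.

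The labels were checked first. *Tug1* (chromosome 11, 3639785 to 3649673, minus strand, GRCm38) was listed at 18.4 FPKM (fragments per kilobase of transcript, scaled to the size of the library) in wild-type and 0.183 FPKM in knockout eyes, and *LacZ* at 0.00894 and 5.98 FPKM. The defining genes of the eye were abundant in both genotypes. The lens crystallin gene *Cryaa* was at 5281 FPKM in wild-type and 5290 FPKM in knockout, and the retinal pigment epithelium isomerase gene *Rpe65* at 88.78 and 89.98 FPKM. The corneal keratin gene *Krt12* was at 317 FPKM in wild-type and 203 FPKM in knockout. FPKM is scaled by transcript length, so levels can be set side by side between genes as well.

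The sequences just upstream of some genes of the groups that differed are shown before their values. The genes of fast skeletal muscle are taken first, since they were the largest group of abundant genes that stood higher in knockout eyes. *Acta1*, skeletal muscle actin, and *Myh4*, a fast myosin heavy chain, each hold in the 250 bases before their start site the E box CAGCTG, a motif bound by myogenic factors, and a CArG box, the motif of serum response factor. Both are printed 5′ to 3′ on the strand of the gene with these motifs in capitals, from RefSeq on GRCm38.p6. *Acta1* lies at chr8:123894776-123895025 (minus strand), with the E box starting 221 and the CArG box 73 bases before the start site. *Myh4* lies at chr11:67237562-67237811 (plus strand), with the E box starting 67 and the CArG box 104 bases before it.
Acta1: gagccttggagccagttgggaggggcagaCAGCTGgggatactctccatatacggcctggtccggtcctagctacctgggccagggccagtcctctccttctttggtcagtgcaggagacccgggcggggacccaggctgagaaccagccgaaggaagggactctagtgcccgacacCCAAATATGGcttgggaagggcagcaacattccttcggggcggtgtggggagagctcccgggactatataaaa
Myh4: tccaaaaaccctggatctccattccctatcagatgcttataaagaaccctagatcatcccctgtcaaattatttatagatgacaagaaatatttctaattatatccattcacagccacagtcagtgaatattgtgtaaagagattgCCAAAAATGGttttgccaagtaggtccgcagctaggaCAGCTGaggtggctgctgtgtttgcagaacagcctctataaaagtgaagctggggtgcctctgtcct

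A promoter was matched by symbol for 22 of the 28 muscle genes measured. The E box, which reads the same on both strands, was present in 11 of the 22 (50%). Over all 27025 genes with a promoter of the same length, each counted once, it was present in 3979 (14.7%). The CArG box, searched on both strands, was in 2 of the 22 (9.09%), against 439 of the 27025 genes (1.62%). Those 2 are *Acta1* and *Myh4*, so the pair shown above does not represent the list for this motif. Among other groups the E box was in 4 of 10 promoters of slow and cardiac-type muscle genes (40%), 3 of 10 of fat genes (30%), 2 of 7 of corneal epithelium genes (28.6%) and 6 of 26 of rod genes (23.1%). The CArG box was in 1 of 10 promoters of the slow muscle genes (10%), 1 of 7 of the corneal epithelium genes (14.3%) and none of the 10 fat and 26 rod ones. A match is a description of the letters and not evidence of a bound factor.

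The second set belongs to the 3 abundant gamma-crystallins of a cluster on chromosome 1, of which *Crygb* was lower past the limit used below and the other two were within it, with changes below 0. The 80 bases before the start sites of *Crygb* (chr1:65082291-65082370), *Crygc* (chr1:65073533-65073612) and *Crygd* (chr1:65063441-65063520), all on the minus strand of GRCm38.p6, are shown with the 8-base run that all of them share in capitals. It starts 32, 31 and 32 bases before the start site in *Crygb*, *Crygc* and *Crygd*. Aligned by the start site without gaps, *Crygb* and *Crygd* have 34 of 80 bases in common, *Crygc* and *Crygd* 24, and *Crygb* and *Crygc* 16. The shared run lies at another distance from the start site in *Crygc*, so its pairs are compared out of step. The counts therefore do not rank the pairs by likeness.
Crygb: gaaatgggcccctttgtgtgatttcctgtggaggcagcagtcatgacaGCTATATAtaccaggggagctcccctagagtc
Crygc: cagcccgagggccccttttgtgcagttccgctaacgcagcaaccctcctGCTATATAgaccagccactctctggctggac
Crygd: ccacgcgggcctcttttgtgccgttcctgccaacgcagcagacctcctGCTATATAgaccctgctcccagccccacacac

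Most genes of the eye were at nearly the same level in both genotypes. The change of a gene is given as log2((KO + 0.1)/(WT + 0.1)) of the FPKM values, which understates the change of low genes, and a gene counts as measured with a mean of both genotypes of at least 1 FPKM. This held for 14296 of the 26653 genes listed, and their median change was -0.02, with quartiles at -0.12 and 0.08. The change was above 0 in 43.5% of them. With a limit of 1.5 times, 378 genes were higher in knockout eyes, 2.64% of those measured, and 123 were lower, 0.86%, while 13795 (96.5%) lay within it. Past 2 times there were 77 higher and 22 lower genes. The summed FPKM of all genes was 378014 in wild-type and 386436 in knockout.

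Genes of high level were more often past the limit on the upper side than those of middle level. Among 470 genes of at least 100 FPKM, 26 were higher (5.53%) and 9 lower (1.91%). Of 6358 genes between 5 and 20 FPKM, 120 were higher (1.89%) and 37 lower (0.582%). Of the 26 abundant genes that were higher, 14 belong to the list of fast skeletal muscle genes and 2 to that of fat cells, and 3 of the 9 that were lower to that of corneal and conjunctival epithelium.

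**Figure D1:**
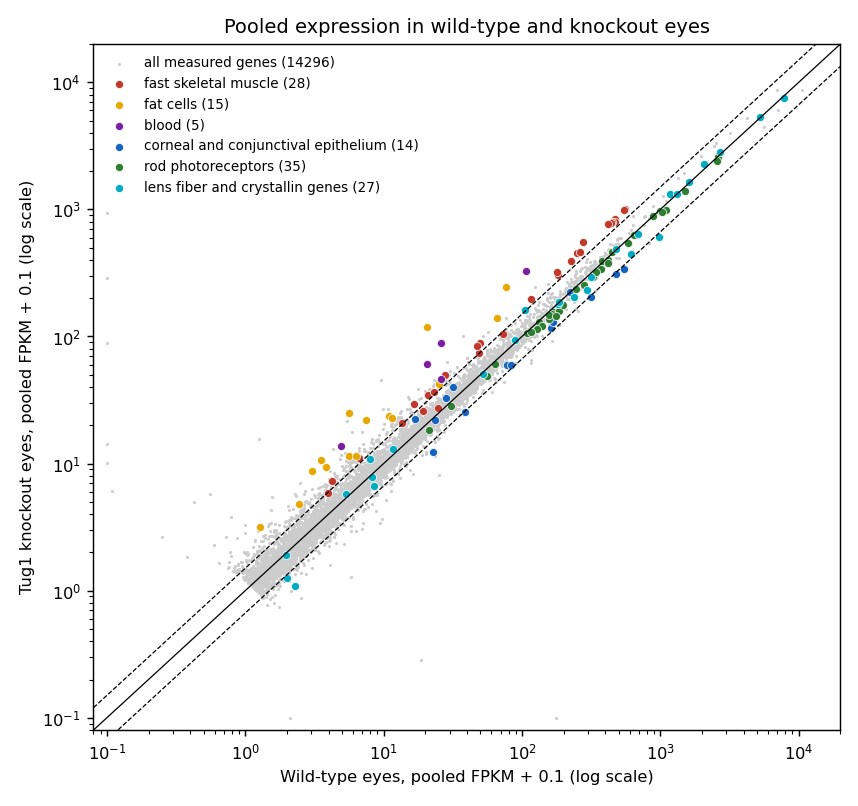
Level of each measured gene in wild-type eyes (horizontal, FPKM + 0.1, log scale) against knockout eyes (vertical, FPKM + 0.1, log scale), 1 pooled value per genotype, with 6 gene lists in color, a solid line at equal levels and dashed lines at 1.5 times in either direction. Of the fast skeletal muscle genes 24 of 28 and of the fat genes 15 of 15 lie above the upper dashed line, and 5 of 14 corneal and conjunctival epithelium genes below the lower one.

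Fast skeletal muscle gave the largest number of abundant genes past the limit. All 28 measured genes of its list had a change above 0 and 24 were higher past 1.5 times, none lower, beside a background of 2.64%. This list and the other lists were chosen with earlier results of these data known. Counts of list members beside the background are therefore a description and not a test. Their median change was 0.80, with quartiles of 0.71 and 0.84, so the members stood close together. Summed over the list, the level was 5220 FPKM in wild-type and 9247 FPKM in knockout eyes, a ratio of 1.77, and its share of all FPKM was 1.38% and 2.39%.

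The parts of the contractile machinery stood at similar changes. *Acta1*, whose upstream sequence is given above, was at 276 FPKM in wild-type and 551 FPKM in knockout (0.996 on the log2 scale). *Myh4*, the other gene shown there, was at 116 and 197 FPKM (0.77). Among the troponins, which make the thin filament sensitive to calcium, *Tnnt3* was at 556 and 1002 FPKM, *Tnni2* at 448 and 791 FPKM and *Tnnc2* at 437 and 784 FPKM. The myosin light chain genes *Mylpf* and *Myl1* were at 470 and 472 FPKM in wild-type and at 837 and 796 FPKM in knockout eyes. Genes for calcium handling had like differences: *Atp2a1*, the calcium pump of fast fibers, was at 550 and 984 FPKM, and *Pvalb*, the calcium buffer parvalbumin, at 262 and 465 FPKM. *Mb*, the oxygen carrier myoglobin, was at 416 and 768 FPKM, and *Ckm*, muscle creatine kinase, at 248 and 455 FPKM.

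The myosin heavy chains separate kinds of fiber. *Myh13*, the myosin known from extraocular muscle, was at 27.7 FPKM in wild-type and 49.4 FPKM in knockout, and *Myh1* at 49.5 and 88.0 FPKM, each with a change of 0.83. *Myh8*, the perinatal form that extraocular muscle keeps in the adult, was at 4.16 and 7.18 FPKM (0.77). The embryonic form *Myh3* (24.4 and 27.2 FPKM, 0.15) and *Myh2* (19.1 and 25.6 FPKM, 0.42) lay within the limit, as did *Pygm*, muscle glycogen phosphorylase (73.3 and 105 FPKM), and *Ttn*, titin (3.84 and 5.78 FPKM). The myosin heavy chains are near-identical neighbors on chromosome 11, so reads shared between them make the split uncertain.

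Of 11 measured slow and cardiac-type muscle genes, 5 were higher and none lower, beside 2.64% and 0.86% of all measured genes. The list median was 0.52. *Myl2*, the slow regulatory light chain, was at 14.8 and 26.8 FPKM, *Tnni1* at 13.2 and 22.1 FPKM, *Myh7* at 2.77 and 4.84 FPKM, and *Myl3* and *Casq2* were the remaining ones. *Atp2a2*, the slow calcium pump, which many other cells also express, was at 46.4 and 45.1 FPKM. The smooth muscle genes *Acta2* (54.2 and 55.0 FPKM) and *Myh11* (12.1 and 12.3 FPKM) were near equal levels. In the list of 12 genes of smooth muscle and vessels 1 was higher past the limit, beside 2.64% of all measured genes. It was *Des*, desmin, which skeletal muscle also expresses (39.8 and 67.4 FPKM). A change above 0 was found in 11 of the 12, beside 43.5% of all measured genes, and the median was 0.15.

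Fat genes made up a smaller amount of RNA with a wider difference. All 15 measured genes of the list of fat cells were higher past 1.5 times, beside 2.64% of all measured genes. Their median change was 1.29, with a lowest of 0.74 and a highest of 2.51. The summed level was 249 FPKM in wild-type and 697 FPKM in knockout eyes, a ratio of 2.80.

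The genes for secreted products of fat cells were among them. *Cfd*, the complement protease adipsin, had the highest change of the list and was at 20.6 FPKM in wild-type and 118 FPKM in knockout, *Adipoq*, the hormone adiponectin, at 7.31 and 21.8 FPKM, and *Retn*, resistin, at 2.95 and 8.64 FPKM. Lipid droplet proteins were higher too, with *Cidec* at 5.54 and 24.7 FPKM and *Plin1* at 3.45 and 10.5 FPKM. *Fabp4*, the fatty acid carrier of fat cells, was at 76.2 and 243 FPKM, and *Pparg*, the transcription factor that drives their differentiation, at 1.18 and 3.05 FPKM. The lowest change was that of *Scd1*, a desaturase that lipid glands also make, at 25.1 and 41.9 FPKM. Of the 2 genes of the list below the filter, *Lep* was at 0.393 and 1.42 FPKM, and *Ucp1*, the uncoupling protein of brown fat, at 0.353 and 0.0755 FPKM.

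Blood genes were higher by a like amount. All 5 measured genes of the list were higher past 1.5 times, beside 2.64% of all measured genes. Their median change was 1.56, with a summed level of 184 FPKM in wild-type and 537 FPKM in knockout. *Hbb-bs* was at 107 and 329 FPKM, *Hbb-bt* at 25.8 and 88.8 FPKM, *Hba-a1* at 20.4 and 60.4 FPKM, and *Hba-a2* at 25.7 and 46.0 FPKM. These globin genes come in near-identical pairs between which reads can be split. *Alas2*, the heme synthesis enzyme of red cell precursors, has no such copy and was at 4.81 and 13.8 FPKM.

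The leukocyte list had a smaller median change, though not every member had a small one. Of 7 measured genes of antigen presentation and leukocytes, 6 were higher and none lower, beside 2.64% and 0.86% of all measured genes. The list median was 0.60, just past the limit of 0.58 on this scale. The MHC class II genes *H2-Aa* (20.2 and 30.4 FPKM), *H2-Ab1* and *H2-Eb1* and their chaperone *Cd74* (37.2 and 56.2 FPKM) had changes of 0.59 to 0.61, which lay within the limit with a pseudocount of 1. The neutrophil genes *S100a8* (0.628 and 2.55 FPKM) and *S100a9* (1.43 and 4.23 FPKM) were higher from low levels. The general leukocyte gene *Ptprc* was at 1.37 and 1.68 FPKM. Of 12 macrophage genes 1 was higher past the limit, beside 2.64% of all measured genes. It was *Cd163*, the scavenger receptor for hemoglobin bound to haptoglobin (1.07 and 2.39 FPKM). A change above 0 was found in 10 of the 12, beside 43.5% of all measured genes, and the median was 0.42. *Csf1r* was at 10.3 and 11.2 FPKM and *Cx3cr1* at 2.06 and 2.04 FPKM.

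Most genes of the surface epithelium list lay on the other side. Of 14 measured corneal and conjunctival epithelium genes 5 were lower and none higher, beside a background of 0.86% lower, and the median was -0.42. Their summed level was 2213 FPKM in wild-type and 1599 FPKM in knockout eyes, a ratio of 0.722. *Aldh3a1*, the abundant dehydrogenase of the cornea, was at 546 and 341 FPKM. *Krt12*, the keratin specific to corneal epithelium, was at 317 and 203 FPKM (-0.64), and *Krt5*, the basal keratin, at 475 and 311 FPKM. *Dsp*, the desmosome protein desmoplakin, was at 22.7 and 12.2 FPKM (-0.89), and *Upk1b*, uroplakin 1b, at 38.4 and 25.5 FPKM, within the limit with a pseudocount of 1.

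Some keratins of the same surface did not share the direction. *Krt15*, found in basal cells toward the limbus, was at 224 FPKM in wild-type and 223 FPKM in knockout. The changes were above 0 for *Krt14* (28.1 and 32.7 FPKM), for *Krt4* (31.4 and 39.7 FPKM) and for *Krt19* (16.6 and 22.5 FPKM), and the latter pair are keratins of the conjunctiva. *Krt13*, also a keratin of the conjunctiva, had a change below 0 (77.8 and 59.9 FPKM, -0.38). Mucin genes outside the list, picked out after their values were seen, went both ways. *Muc5ac* (0.325 and 4.86 FPKM) and *Muc1* (3.38 and 6.45 FPKM) were higher past the limit, and *Muc15* (2.05 and 0.893 FPKM) was lower. *Tff1* (0.454 and 5.67 FPKM) and *Agr2* (2.41 and 6.98 FPKM) were higher too. Which cells these transcripts came from was not tested. The lists of lid epidermis and of the lacrimal, Harderian and meibomian glands were almost unmeasured, with 1 of 9 and 1 of 6 genes past the filter. Their summed levels were 3.91 and 3.03 FPKM for epidermis and 117 and 94.1 FPKM for glands, nearly all of it *Aqp5*, a water channel that the corneal epithelium also makes.

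Further genes of the same epithelium were chosen after their values were seen, so their counts and medians follow from that choice and support nothing. Of 13 genes of desmosomes and the cell envelope 6 were lower, beside 0.86% of all measured genes. Among the 6 is *Dsp*, which is counted in the corneal list too. All 13 had a change below 0, with a median of -0.58. *Dsg1a* (6.86 and 2.93 FPKM) and *Dsg3* (6.25 and 2.85 FPKM), adhesion proteins of the desmosome, had the lowest values relative to wild-type. *Dsc3* was at 11.2 and 5.99 FPKM, and *Evpl* and *Ppl*, envoplakin and periplakin of the envelope, at 15.4 and 8.83 FPKM and at 23.0 and 15.3 FPKM. Of 5 other surface keratins 4 were lower, among them *Krt6a* (60.1 and 36.8 FPKM), *Krt6b* (73.6 and 43.4 FPKM) and *Krt80* (10.3 and 5.06 FPKM), and *Krt6a* and *Krt6b* are close copies whose reads can be split. None of 6 transcription factors of the epithelium was past the limit, and all 6 were below 0, with a median of -0.42, *Pax6* being at 126 and 108 FPKM. The connective tissue beneath differed little: no gene of 21 of corneal stroma was past 1.5 times, with a median of -0.12. *Kera*, the keratocyte proteoglycan keratocan, was at 27.1 and 21.7 FPKM there.

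**Figure D2:**
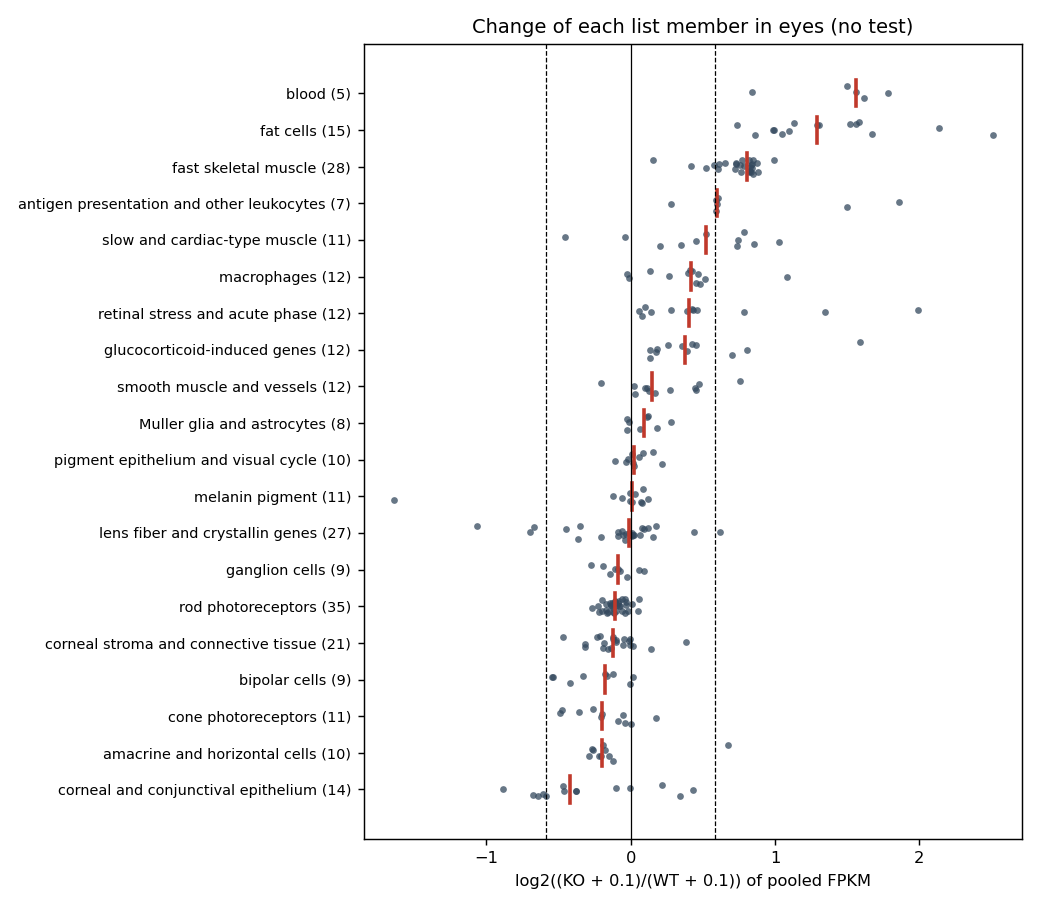
Change of every measured gene of each list in eyes (horizontal, log2 of knockout over wild-type with 0.1 FPKM added), with the median of each list marked and dashed lines at 1.5 times in either direction. The fat, blood and fast muscle lists have medians of 1.29, 1.56 and 0.80, and the corneal and conjunctival epithelium one of -0.42. The lists of retinal neurons and glia have medians between -0.20 (amacrine and horizontal cells) and 0.09 (Müller glia and astrocytes).

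In the lens the crystallin families differed from each other. The list of 27 lens genes had a median of -0.01 and a summed level of 26172 FPKM in wild-type and 25845 FPKM in knockout. Its 8 alpha- and beta-crystallins had a median of 0.01 and none was past the limit, with *Crybb2* at 7757 and 7537 FPKM and *Cryba1* at 2716 and 2847 FPKM.

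The gamma-crystallins of the chromosome 1 cluster, which are made in the fiber cells of the lens core, all had changes below 0. Of the 5 measured, 3 were lower past the limit, beside 0.86% of all measured genes, but 2 of the 3 were at low levels. The median of the 5 was -0.67, and that of the 3 with a mean of at least 5 FPKM was -0.45. *Crygb* was at 976 FPKM in wild-type and 602 FPKM in knockout (-0.70), while *Crygc* at 609 and 447 FPKM (-0.45) and *Crygd* at 294 and 230 FPKM (-0.35) lay within the limit. *Cryga* (2.18 and 0.989 FPKM) and *Crygf* (1.91 and 1.16 FPKM, within the limit with a pseudocount of 1) were the ones at low levels, and reads shared among these similar genes may be split. *Crygs*, the gamma-crystallin outside the cluster, was at 2077 and 2258 FPKM. *Grifin*, a lens galectin-related protein, was the lens gene on the upper side, at 106 and 162 FPKM (0.62), within the limit when values were divided by their total. The lens water channel gene *Mip* was at 88.7 and 93.6 FPKM.

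Photoreceptor genes stood slightly below the level of wild-type eyes. None of 35 rod genes was past the limit. A change above 0 was found in 3, beside 43.5% of all measured genes, and a change below 0 in 32. The median was -0.11 with a range of -0.27 to 0.06, beside a median of -0.02 over all measured genes. The summed level of the rod genes was 17544 FPKM in wild-type and 16606 FPKM in knockout. *Gnat1*, rod transducin, was at 2552 and 2414 FPKM, *Sag*, the arrestin of rods, at 1107 and 988 FPKM, and *Abca4*, the retinoid transporter of outer segments, at 175 and 145 FPKM.

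Genes of cones and of the neurons of the inner retina had medians below 0 as well, with no gene lower past the limit. The median of 11 cone genes was -0.20, with *Opn1sw*, the short-wave opsin, at 110 and 79.0 FPKM, *Opn1mw*, the middle-wave opsin, at 47.3 and 45.7 FPKM, and *Pde6c* at 16.87 and 11.98 FPKM. The median was -0.18 for 9 bipolar genes, of which *Vsx1* (4.44 and 3.03 FPKM) and *Isl1* (19.7 and 13.5 FPKM) had the lowest changes, -0.54 each. For 10 amacrine and horizontal cell genes it was -0.20, with *Th*, the dopamine synthesis enzyme, on the other side from a low level (0.856 and 1.42 FPKM, within the limit with a pseudocount of 1). It was -0.09 for 9 ganglion cell genes and 0.09 for 8 Müller glia and astrocyte genes. *Gfap*, which glia make in stressed retina, was at 42.1 and 51.2 FPKM (0.28).

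The pigment epithelium was near the background median. None of its 10 measured visual cycle genes was past 1.5 times, and the median was 0.02. Of 11 melanin genes the median was 0.01, and 1 was lower past the limit, beside 0.86% of all measured genes. That gene was *Mitf* (chromosome 6, 97807052 to 98021349, plus strand), the master transcription factor of pigment cells, at 25.2 FPKM in wild-type and 7.998 FPKM in knockout (-1.64). Genes known as its targets lay near equal levels, with *Tyr* at 13.6 and 13.5 FPKM, *Tyrp1* at 148 and 156 FPKM, *Dct* at 234 and 246 FPKM and *Pmel* at 128 and 118 FPKM. *Mitf* in other tissues was at 12.7 and 14.001 FPKM in heart and at 1.68 and 33.98 FPKM in prostate.

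Subunits of the respiratory chain, which passes electrons from nutrients to oxygen and drives ATP synthase, were nearly all slightly higher. Of 80 nuclear genes for the 5 complexes, 78 had a change above 0, beside 43.5% of all measured genes. Their median was 0.32 with quartiles of 0.27 and 0.35, and 3 were higher past 1.5 times, beside 2.64% of all measured genes. By complex, the median was 0.30 for 36 genes of complex I, 0.31 for 4 of complex II, 0.33 for 10 of complex III, 0.32 for 15 of complex IV and 0.32 for 15 of ATP synthase. Of 11 measured subunits encoded in mitochondrial DNA, 8 had a change above 0, and the estimate of *mt-Co1* had failed and was left out.

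The genes past the limit were those of complex IV that striated muscle uses in place of a widely expressed form. *Cox6a2* was at 100 and 168 FPKM, *Cox7a1* at 110 and 199 FPKM and *Cox8b* at 154 and 256 FPKM. Their widely expressed counterparts *Cox6a1*, *Cox7a2* and *Cox8a* had changes of 0.01, 0.29 and -0.06. More such pairs, chosen after their values were seen, had the same order. The change was 0.995 for *Ckmt2*, mitochondrial creatine kinase of striated muscle, and -0.10 for *Ckmt1*. It was 0.83 for the muscle ribosomal protein gene *Rpl3l* and 0.05 for *Rpl3*, and 0.44 for the ADP/ATP carrier gene *Slc25a4* and 0.02 for *Slc25a5*.

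Transcript length moved with the change. The median was 0.07 for 439 measured genes of up to 500 nt and -0.07 for 1023 genes over 4000 nt, and respiratory subunits are encoded by short transcripts. Among genes of up to 750 nt and at least 20 FPKM, 53 respiratory genes had a median of 0.32 and 52 a change above 0. The other 865 genes of that class had a median of 0.06 and 555 a change above 0. The 80 genes of cytosolic ribosomal proteins, also short, had a median of 0.15, with 79 above 0 and *Rpl3l* alone past the limit. The part that length, muscle or the 3 samples of a genotype have in these values was not tested.

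**Figure D3:**
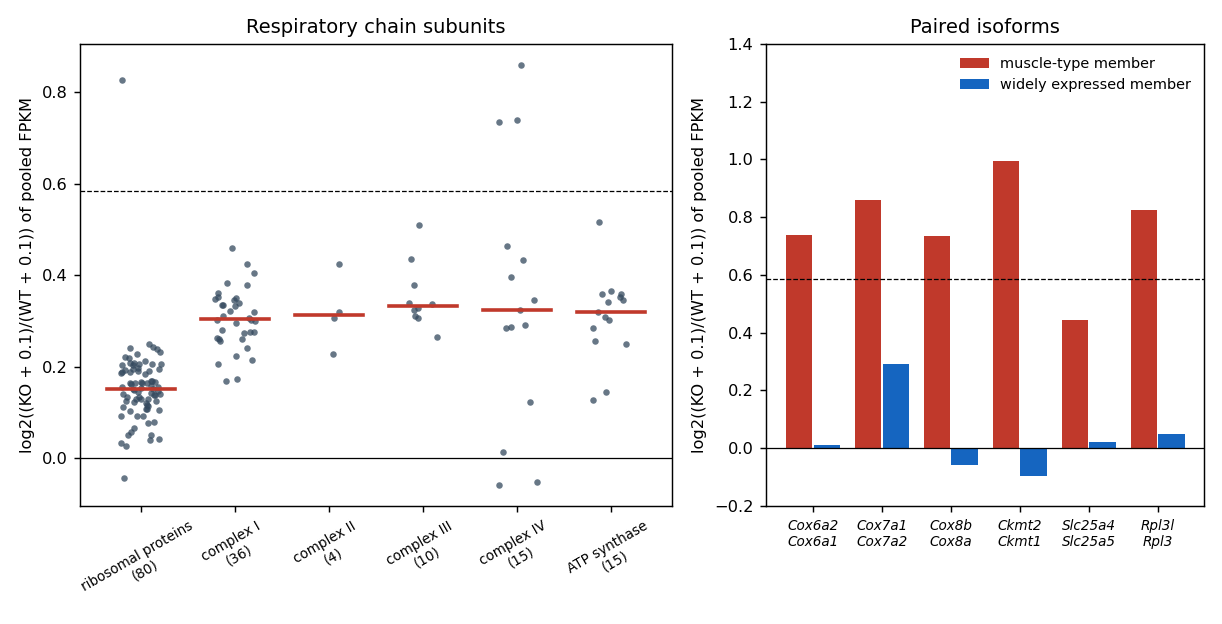
Left, change of each ribosomal protein gene and of each nuclear respiratory chain and ATP synthase gene by complex (points, log2 of knockout over wild-type with 0.1 FPKM added), with medians as red bars and 1.5 times as a dashed line. Right, on the same scale, the changes of gene pairs with a muscle type and a widely expressed form, in which the muscle form has the higher change in each pair, 0.86 for *Cox7a1* against 0.29 for *Cox7a2*.

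Genes that respond to hormones and stress were examined as lists too. All 12 measured glucocorticoid-induced genes had a change above 0, beside 43.5% of all genes, with 3 higher past the limit, beside 2.64%, and a median of 0.37. *Pdk4*, which blocks the entry of pyruvate into the citric acid cycle and is abundant in muscle, was at 4.23 and 12.9 FPKM, *Tsc22d3* at 25.6 and 44.8 FPKM and *Zbtb16*, within the limit with a pseudocount of 1, at 1.23 and 2.06 FPKM, while *Fkbp5*, a common readout of the hormone, was at 6.72 and 8.62 FPKM. All 12 measured genes of stress and the acute phase likewise had a change above 0, with a median of 0.41. Of the 12, 3 were higher past the limit, beside 2.64% of all measured genes. These were *Hp*, haptoglobin, at 5.35 and 21.5 FPKM, *C3*, the central complement protein, at 6.91 and 17.7 FPKM, and *Lcn2* at 2.07 and 3.65 FPKM. *Mt1* and *Mt2* belong to both lists, at 163 and 214 FPKM and at 109 and 146 FPKM.

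Other lists had no common direction or small medians. Of 19 measured immediate early genes, which are induced within minutes of a stimulus, 2 were lower and 1 higher, beside 0.86% and 2.64% of all measured genes. *Egr1* (12.99 and 7.563 FPKM) and *Cyr61* (14.5 and 9.48 FPKM) were lower, *Nr4a3* (0.750 and 1.45 FPKM) was higher, and the median was -0.14. *Cyr61* and *Nr4a3* lay within the limit with a pseudocount of 1. None of 19 circadian clock genes, 13 heat shock genes, 11 interferon-stimulated genes and 5 genes of taurine uptake and synthesis was past the limit, with medians of -0.04, 0.21, -0.14 and 0.05. The taurine transporter *Slc6a6*, whose loss harms photoreceptors, was at 169 and 145 FPKM.

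Genes beside *Tug1* on chromosome 11 were higher in part. Of 9 measured neighbors 4 were higher past the limit and none was lower, beside 2.64% and 0.86% of all measured genes. The median of the 9 was 0.51. *Rnf185*, a ubiquitin ligase, was at 13.2 and 25.7 FPKM, *Selm*, a selenoprotein, at 52.1 and 101 FPKM, *Smtn*, the smooth muscle protein smoothelin, at 11.4 and 20.8 FPKM, and *Inpp5j* at 2.63 and 4.88 FPKM. *Morc2a* (chromosome 11, 3649191 to 3690477, plus strand) overlaps *Tug1* by 483 bp on the opposite strand, and was at 11.1 and 7.45 FPKM (-0.57). The kit named in the methods does not keep the strand in its standard protocol, so reads from that overlap can count to either gene.

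Single genes at the extremes were named by rank among genes with a mean of at least 5 FPKM. The 5 highest, *Gm21836*, *Gm16499*, *Gm17571*, *Gm17530* and *Gm10491*, were listed at 0 in wild-type and at 940, 287, 88.4, 14.04 and 10.1 FPKM in knockout. The lowest, *Gm17364*, was listed at 177 FPKM in wild-type and 0 in knockout. *Gm21836* is 63 bp long and was listed at 871 FPKM in wild-type and 0 in knockout heart, and at 1383 FPKM and 0 in liver. An exact 0 beside such values may be a failed estimate, so no fold is given for these genes.

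Below them came known genes. *Gp2*, a membrane glycoprotein of pancreatic acinar cells and of cells that sample antigen at mucosal surfaces, was at 1.16 FPKM in wild-type and 15.5 FPKM in knockout eyes (3.62). *Cyp2e1*, a cytochrome P450 of liver that fat also expresses, was at 9.54 and 45.3 FPKM. The other 8 of the 15 highest were *Cfd*, *Cidec*, *Hp*, *Hbb-bt*, *Fabp4*, *Hbb-bs*, *Pdk4* and *Plin1*, whose values are given above. Among the 50 highest genes 11 belong to the fat list, 4 to blood, 2 to stress and the acute phase, 1 to fast muscle and 1 to the glucocorticoid list.

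On the lower side *Mitf* came first of the genes measured above 0 in both genotypes. *Npvf*, a neuropeptide precursor, was at 9.68 and 3.57 FPKM. Of the 50 lowest genes 4 belong to the corneal and conjunctival epithelium list and 1 to the lens list. The desmosome and envelope genes hold 3 of the 50, *Dsp* being in the corneal list too, and the other surface keratins hold 3. Those lists of desmosome genes and other keratins were chosen after their values were seen, so their counts here follow from that choice. *Psca* was at 117 and 61.7 FPKM, *Fam83a* at 23.6 and 11.4 FPKM, *Nccrp1* at 16.1 and 8.17 FPKM, and *Asprv1*, a protease of stratified epithelium, at 166 and 91.7 FPKM. *Ly6g6c* (9.32 and 3.28 FPKM), *Scin* (6.99 and 3.28 FPKM), *Gm10217*, *Krt80*, *Dsc3*, *Dsp* and *Evpl* were among them as well. *A830036E02Rik* (115 and 64.7 FPKM) lies on the plus strand of chromosome 11 from 99416956 to 99425497 and overlaps *Krt12* on the minus strand by 5304 bp, so its reads cannot be told from those of *Krt12* without strand.

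**Figure D4:**
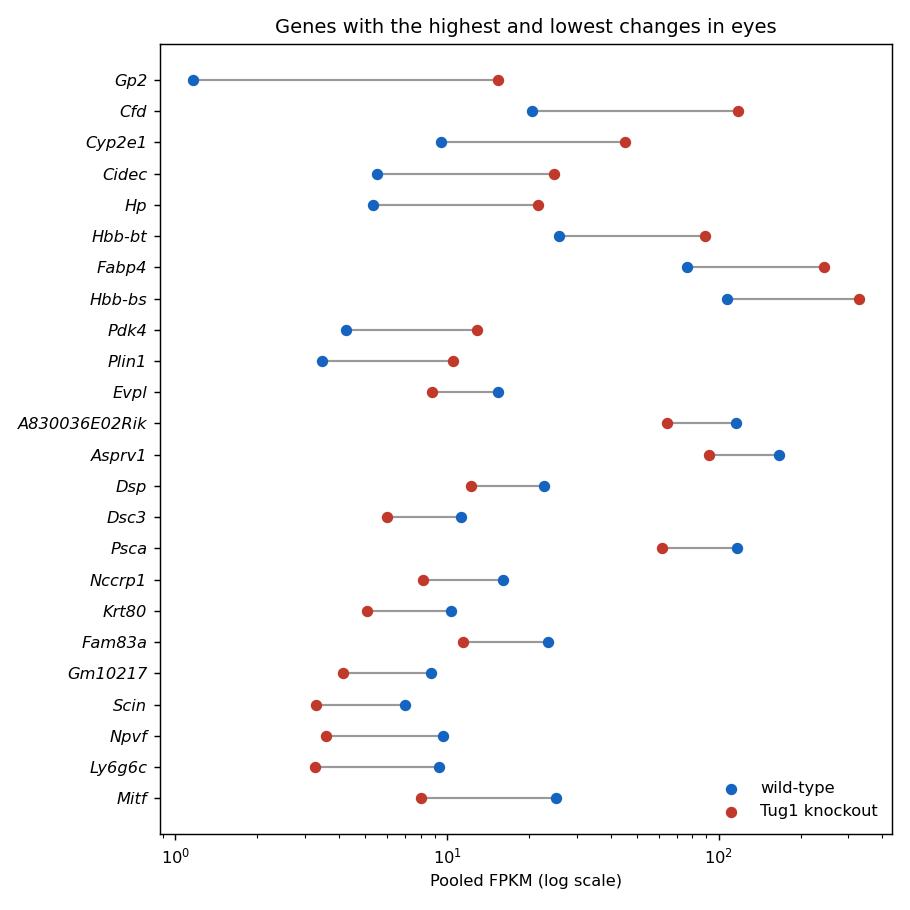
FPKM in wild-type (blue) and knockout (red) eyes (log scale) of the genes named by rank and not listed at 0, 1 pooled value per genotype joined by a line for each gene. Fat genes such as *Cfd* (20.6 and 118 FPKM) are higher in knockout, and genes such as *Psca* (117 and 61.7 FPKM) are lower.

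Further genes past the limit, outside the lists of the rule, were picked out after their values were seen. *Tpm1*, a tropomyosin of striated muscle, was at 273 and 449 FPKM, *Ckmt2* at 124 and 247 FPKM and *Pgam2*, the muscle phosphoglycerate mutase, at 76.5 and 141 FPKM. *Actc1*, the cardiac form of muscle actin, was at 56.6 and 108 FPKM. *Lpl*, the lipase that frees fatty acids for muscle and fat, was at 14.98 and 33.4 FPKM, and *Cd36*, a fatty acid transporter of the same tissues, at 15.1 and 32.2 FPKM. *Gsto1* (823 and 542 FPKM), *Gsta4* (340 and 226 FPKM), *Lypd2* (252 and 159 FPKM) and *Calml3*, a calmodulin-like protein of epithelium (247 and 163 FPKM), were lower. Of all 501 genes past the limit 471 were protein-coding, 17 antisense and 5 lincRNA genes.

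The pattern of the eye was set beside the 6 other tissues, each again with 1 pooled value per genotype, so no difference between tissues could be tested. The fast muscle median was 0.80 in eyes, -0.62 in heart and between -0.26 and 0.07 in liver, embryonic fibroblasts, prostate, spleen and testes, where few of its genes were measured. The fat median was 1.29 in eyes, 1.73 in prostate, -0.86 in heart and between -0.13 and 0.03 in the others. *Cfd* had 26.4 and 126 FPKM in prostate and 86.5 and 48.6 FPKM in heart. The median of blood genes was 1.56 in eyes, 0.86 in spleen, 0.66 in prostate, -0.02 in liver, -0.30 in heart and -0.46 in testes.

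The respiratory complex I median of 0.30 in eyes stood beside values between -0.12 and 0.05 in the other tissues. The antigen presentation list had medians of 0.60 in eyes, 0.79 in testes, 0.63 in liver, 0.41 in prostate, -0.07 in heart and -0.15 in spleen, and in embryonic fibroblasts 1 gene was measured. The glucocorticoid list had 0.37 in eyes, 0.99 in liver, 0.72 in heart, 0.35 in prostate, 0.34 in spleen, 0.10 in testes and 0.02 in embryonic fibroblasts. The median over all measured genes was between -0.06 and 0.03 in every tissue.

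**Figure D5:**
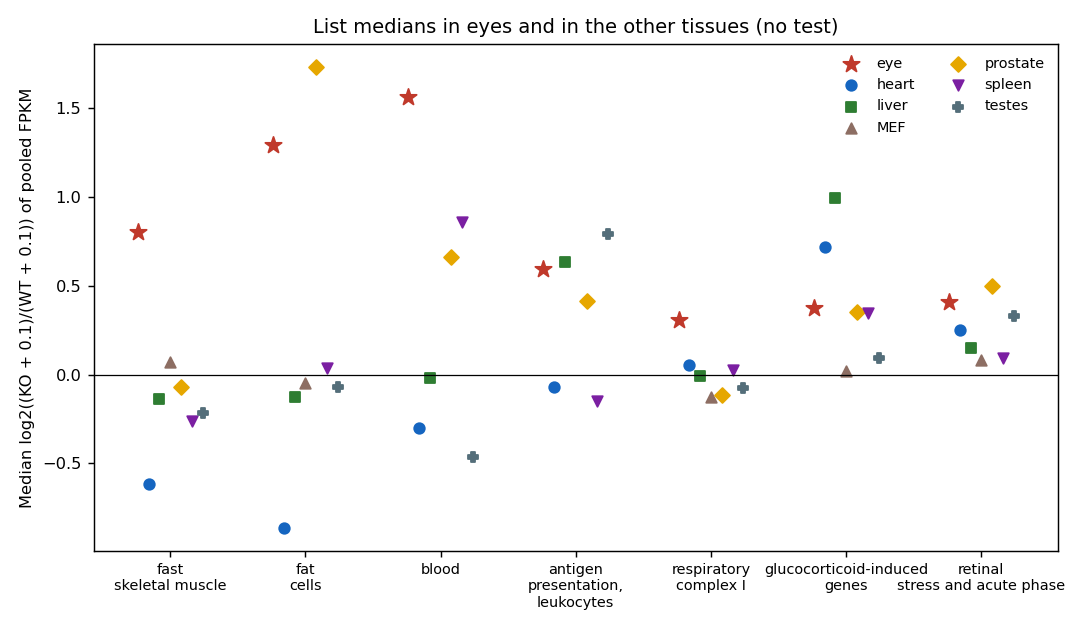
Median change (log2 of knockout over wild-type with 0.1 FPKM added) of gene lists with at least 4 measured members in each tissue, eyes beside the other tissues. Fast muscle stands at 0.80 in eyes and -0.62 in heart, and fat at 1.29 in eyes, 1.73 in prostate and -0.86 in heart.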

How the data were processed

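RNA of 3 wild-type and 3 knockout eye samples was analysed. Per the submitters' processing notes, CASAVA 1.8.2, TopHat2 and Cuffdiff had been used with mm10, while the methods of the study describe another route for its own calls. The authors' deposited table gives 1 FPKM value per gene, genotype and tissue, with samples pooled. Its other columns hold the authors' fold changes, test statistics, p-values and q-values, which were not used. The table holds no counts and no value per sample, so the depth is unknown and no spread between mice, interval or test could be computed.

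The change was log2((KO + 0.1)/(WT + 0.1)) over genes with a mean of at least 1 FPKM and a completed estimate, with a limit of 1.5 times. The text names the 15 highest and 15 lowest genes with a mean of at least 5 FPKM, *LacZ* and *Tug1* apart, *Cryaa*, *Krt12*, *Rpe65*, and members of 34 lists (496 entries, 4 not matched), first those past the limit and then those of highest wild-type level. The members and lists were chosen with earlier results of these data known, and 7 further lists after the values were seen. Positions come from GENCODE vM21 (GRCm38), in which 25827 gene identifiers of the table were found, and promoters from RefSeq (GRCm38.p6). Genes on chromosome 18 were left out of the promoter counts.

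The alternatives were pseudocounts of 1 and 0.01, values divided by their total, changes centred on the median, no filter, a mean of at least 5 FPKM and a limit of 2 times. The steps were tested on simulated data. Computation was in Python 3.11.15 (numpy 2.4.6, pandas 2.3.3, matplotlib 3.10.9).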

Additional observations from a re-analysis of the deposited data

How the results depend on the processing

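Of the counts, 378 genes were higher and 123 lower. Without a filter there were 643 and 378, with a mean of at least 5 FPKM 204 and 56, and with a limit of 2 times 77 and 22, as fewer or more genes could pass by construction. With a pseudocount of 1 the lower genes were 61 and the higher ones 265. Dividing by the total gave 348 and 141, and centring on the median 398 and 103. Alternatives chosen after seeing the data left 373 higher genes without those listed at 0, 322 without the lists of muscle, fat, blood and immune cells, and 109 lower genes without the surface epithelium lists. The median of the fat list was 1.08 with a pseudocount of 1. That of the neighbors of *Tug1*, without *Tug1* and *LacZ* (0.51), was 0.40 with a pseudocount of 1, 0.64 with no filter and 0.27 with a mean of at least 5 FPKM. That of the gamma-crystallin cluster (-0.67) was -0.45 with a pseudocount of 1 and with a mean of at least 5 FPKM. The rest of the 40 list medians moved by less than 0.1 on the log2 scale, and none of 580 named genes and list members reversed.

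Genes near the limit changed sides. The MHC class II genes and *Cd74*, *Upk1b*, *Grifin*, *Casq1*, *Cacna1s*, *Ppl*, *Th*, *Zbtb16*, *Nr4a3*, *Cyr61* and *Crygf* lay within 1.5 times under at least 1 setting, and *Ttn*, *Morc2a*, *Dsc2* and *Pkp1* passed it under at least 1. Leaving out each replicate in turn could not be run, as the table holds no value per sample. No paired analysis was possible because the table holds 1 pooled value per genotype. The depth is unknown, so the error of low values could not be estimated.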

Other observations

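Genes of myelin, chosen after their values were seen, had a median change of 0.30. All 10 had a change above 0, beside 43.5% of all measured genes, and being picked for their values they support nothing. *Prx*, periaxin of Schwann cells, was past 1.5 times, at 2.54 FPKM in wild-type and 4.34 FPKM in knockout. Among genes that the oligodendrocytes of the optic nerve express, *Mbp* was at 270 and 346 FPKM and *Mog* at 6.203 and 7.251 FPKM, both within the limit. Genes of vessel walls differed among themselves, with *Pecam1* at 7.15 and 9.96 FPKM, *Cdh5* at 5.62 and 7.71 FPKM, *Esam* at 8.41 and 9.11 FPKM and *Kdr* at 20.6 and 17.9 FPKM.

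*Gp2* was the known gene with the highest change in eyes, and it is listed with pancreatic acinar genes. The acinar enzymes were not at measurable levels in eyes, with *Pnlip* at 0.162 and 0.121 FPKM and *Prss2* at 0 in both genotypes. In spleen *Gp2* was at 1.13 and 19.4 FPKM, and *Prss2* was at 0.820 and 407 FPKM there. *Ifi27l2a*, an interferon-induced gene outside the lists, was at 37.1 and 101 FPKM in eyes, while the list of interferon-stimulated genes had a median of -0.14.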
